A study of Mus musculus with 12 samples.

Results

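The 10 genes Prg2, Epx, Mcpt8, Prss34, Cpa3, Ms4a2, Fcer1a, Ear1, Ear2 and Ear6 encode granule proteins and receptors of eosinophils, basophils and mast cells. They were matched by mouse symbol to the Ensembl rows of the deposited tables, which hold 56953 genes, and all 10 were found. All 10 had at least 10 counts in at least 3 of the 12 libraries.

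Eosinophils, basophils and mast cells are granule-bearing cells that develop from progenitors in which the transcription factors GATA1 and GATA2 are active. Eosinophil granules are packed with cationic proteins, among them major basic protein (Prg2), eosinophil peroxidase (Epx) and ribonucleases of the Ear family, whose number and sequence have diversified in the mouse. Basophils of the mouse are recognised by the proteases Mcpt8 and Prss34, while carboxypeptidase A3 (Cpa3) is shared by basophils, mast cells and their progenitors. Both basophils and mast cells carry the high-affinity IgE receptor, in which Fcer1a binds IgE, Ms4a2 is the beta chain that amplifies the signal, and Fcer1g is the signalling gamma chain used by many other Fc receptors too.

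The libraries came from bone marrow of 8-week-old female C57BL/6J mice with the alleles Rank cre/+;R26.eYFP fl/+, in which the Rank promoter drives Cre and recombination switches on eYFP. All 4 groups carried these alleles, and each had 3 libraries: eYFP+ macrophages (named embTRMp in the labels), eYFP- macrophages (adTRMp), Ly6Chi monocytes and Ly6Clo monocytes. The reporter marks cells whose ancestors expressed Rank, so eYFP- macrophages are those left unmarked and hold any cell that passed the macrophage gate without recombination. Macrophages were gated as F4/80hi CD206+ VCAM1+ cells, and monocytes and eosinophils, both CD11b+, were told apart by light scatter. The comparisons ask where, among these sorted populations, transcripts of the other granulocyte lineages were found. Nothing states that same-group libraries came from separate animals, so p-values measure only the spread between these libraries.

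Library totals ran from 26390927 to 48618187 counts, with 16434 to 27634 genes detected. Ly6Clo replicate 2 had the lowest values of both and stood apart from its group, with Pearson r of 0.898 and 0.902 to the other Ly6Clo libraries on the variance-stabilised scale, against 0.952 or more within the other groups. Summed over 8 macrophage markers, the level was 21292 to 22910 TPM (a share of the library's transcripts, corrected for transcript length) in eYFP- macrophages, 25760 to 29118 TPM in eYFP+ macrophages and 281 to 1355 TPM in the monocyte libraries. Ly6c2, the gene for the antigen used in the monocyte gate, was at 5809 to 6963 TPM in Ly6Chi and 32.4 to 77.5 TPM in Ly6Clo monocytes. In bulk libraries such as these, fewer cells of a type and less RNA per cell cannot be told apart.

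The 10 genes fell into 3 patterns. The proteases of basophils and mast cells and the IgE receptor chain Ms4a2 were high in all 3 eYFP- macrophage libraries. Fcer1a was highest in eYFP- replicates 2 and 3, with eYFP- replicate 1 below Ly6Chi replicate 3. Mcpt8, Prss34 and Fcer1a were also high in Ly6Chi replicate 3. Prg2, Epx and Ear6 were highest in eYFP- replicate 3 and Ly6Clo replicate 3. Ear1 and Ear2 were present in every library and highest in Ly6Clo monocytes. The highest TPM of 7 genes was in eYFP- replicate 3, that of Ear6 in Ly6Clo replicate 3, and that of Ear1 and Ear2 in Ly6Clo replicate 1.

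**Figure D1:**
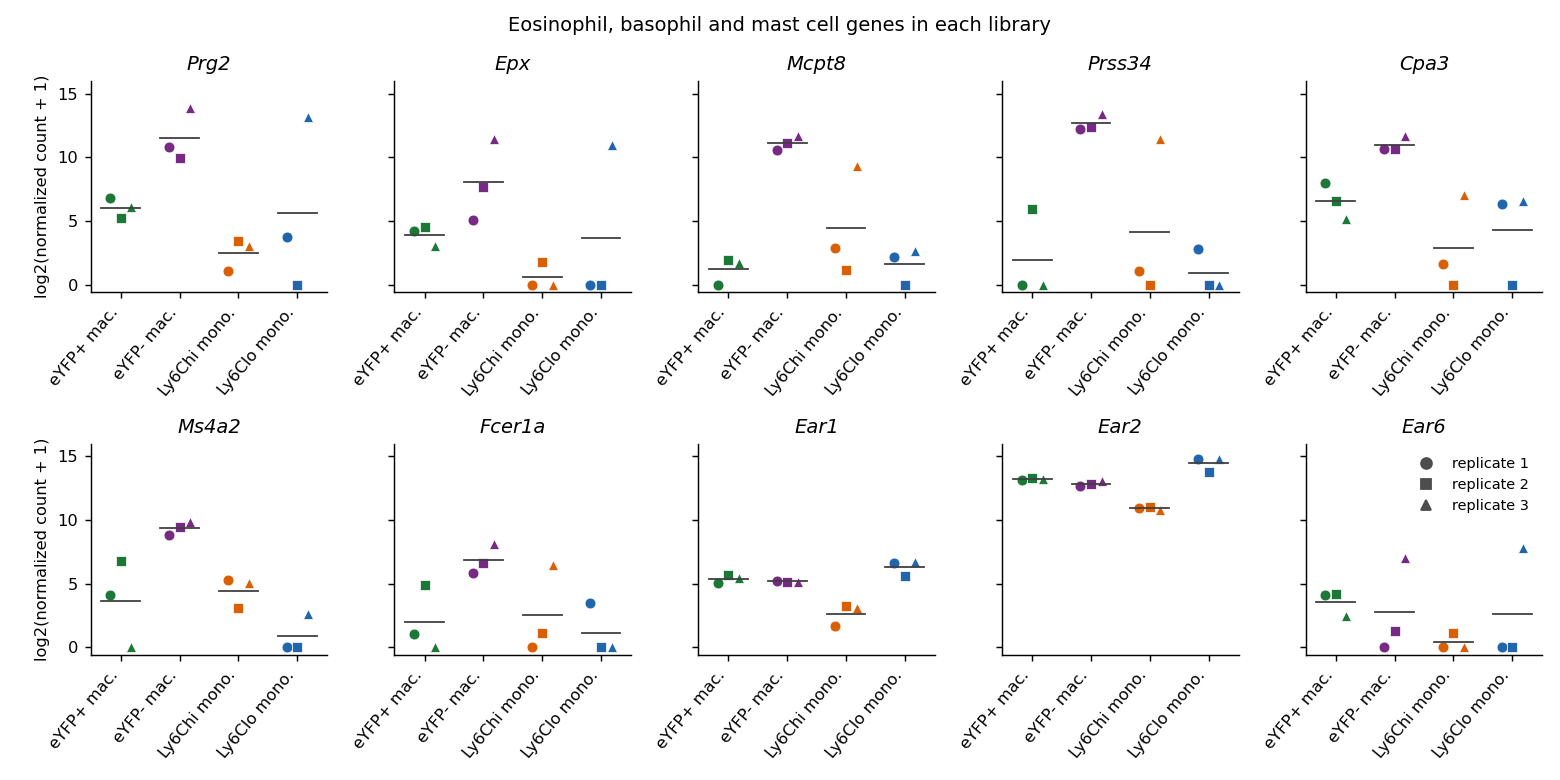
Each panel plots 1 of the 10 genes as log2(normalized count + 1), where normalized counts are deposited counts scaled by DESeq2's size factors. Each point is 1 library, its shape gives the replicate number, and the bar is the mean of the 3 log values. Prg2, Epx and Ear6 reach their top values in libraries numbered 3, the 5 genes from Mcpt8 to Fcer1a have their highest mean in eYFP- macrophages, and Ear2 is found in every library, at 1737 to 28431 normalized counts.

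Prg2, the most abundant granule protein gene of eosinophils, had 1809, 991 and 14755 normalized counts in eYFP- replicates 1, 2 and 3 and 108, 36.2 and 68.1 in eYFP+ replicates 1, 2 and 3. In monocytes it had 12.7, 0 and 9054 normalized counts in Ly6Clo replicates 1, 2 and 3 and 1.06, 9.72 and 7.29 in Ly6Chi. Replicate 3 held 84.1% of the eYFP- total and 99.9% of the Ly6Clo total. The eYFP- and eYFP+ libraries did not overlap, while the Ly6Clo libraries lay on both sides of the Ly6Chi values. The log2 difference of eYFP+ minus eYFP- was -6.37 ± 2.07 (SE, n = 3 per group), with a DESeq2 adjusted p of 0.0838.

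Epx, the peroxidase that makes hypobromous acid, was even more concentrated. It had 32.9, 205 and 2806 normalized counts in the eYFP- libraries and 17.5, 21.9 and 7.4 in the eYFP+ libraries. In Ly6Clo monocytes replicates 1 and 2 were at 0 and replicate 3 had 1955 normalized counts, and in Ly6Chi monocytes only replicate 2 had any, at 2.43. Replicate 3 thus held 92.2% of the eYFP- and 100% of the Ly6Clo total. The eYFP+ minus eYFP- difference was -6.02 ± 2.74 (log2, SE, n = 3 per group), with a DESeq2 adjusted p of 0.431.

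Ear6, an eosinophil-associated ribonuclease gene, had 0, 1.49 and 127 normalized counts in eYFP-, 0, 0 and 228 in Ly6Clo, 16.5, 17.2 and 4.44 in eYFP+ and 0, 1.21 and 0 in Ly6Chi libraries. Like Epx it was high in the 2 libraries eYFP- replicate 3 and Ly6Clo replicate 3. Unlike Epx, its next highest values were in eYFP+ macrophages, above eYFP- replicates 1 and 2. DESeq2 gave Ear6 and Cpa3 no p in any comparison, because single libraries passed its Cook's distance limit for outlying counts.

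The granule genes did not keep 1 ratio to each other. The TPM of Prg2 over that of Epx was 15.5 and 16.9 in eYFP- replicates 2 and 3 and 14.9 in Ly6Clo replicate 3, 177 in eYFP- replicate 1, and 19.8, 5.30 and 29.5 in the eYFP+ libraries. Ear6 over Epx was 0.137 in eYFP- replicate 3 and 0.350 in Ly6Clo replicate 3, against 2.83 and 2.36 in eYFP+ replicates 1 and 2. These ratios were taken only where both genes had at least 10 counts. Prg3, the neighbouring gene of Prg2 that encodes another major basic protein, followed with 49.3, 167 and 669 normalized counts in eYFP- libraries and 4.24, 0 and 361 in Ly6Clo libraries.

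Mcpt8, a granule protease made by basophils, gave the clearest separation of the 2 macrophage groups. It had 1530, 2237 and 3258 normalized counts in eYFP- macrophages and 0, 2.86 and 2.22 in eYFP+ macrophages. In Ly6Chi monocytes it had 6.36, 1.21 and 646, and in Ly6Clo monocytes 3.4, 0 and 5.08 normalized counts. All eYFP- libraries lay above every other library, and Ly6Chi replicate 3 alone held 98.8% of the Ly6Chi total. The eYFP+ minus eYFP- difference was -10.42 ± 1.86 (log2, SE, n = 3 per group), with a DESeq2 adjusted p of 9.23e-06. On the counts alone, eYFP- macrophages had 8576 and eYFP+ macrophages 6, a ratio per size factor of 1326 with an exact 95% interval of 609 to 3613 for counting error only.

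Prss34, the other basophil protease, was the most abundant of the 5 basophil and mast cell genes in eYFP- macrophages on the TPM scale, at 188, 254 and 456 TPM. Its normalized counts were 4805, 5354 and 10693 in eYFP- and 0, 59.1 and 0 in eYFP+ libraries. They were 1.06, 0 and 2733 in Ly6Chi and 5.94, 0 and 0 in Ly6Clo libraries. As for Mcpt8, the 3 eYFP- libraries were highest and Ly6Chi replicate 3 came next. The eYFP+ minus eYFP- difference was -8.46 ± 3.35 (log2, SE, n = 3 per group), with a DESeq2 adjusted p of 0.261.

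Cpa3, which trims peptides inside the granule, had 1583, 1649 and 3295 normalized counts in eYFP-, 257, 94.4 and 34 in eYFP+, 2.12, 0 and 132 in Ly6Chi and 80.6, 0 and 94.5 in Ly6Clo libraries. Its eYFP- libraries also lay above all others, but unlike the basophil proteases it was found in every eYFP+ library. The eYFP+ minus eYFP- difference was -4.08 ± 1.87 (log2, SE, n = 3 per group). With the Cook's distance limit switched off its DESeq2 adjusted p was 0.441.

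Of the IgE receptor chains, Ms4a2 had 464, 692 and 911 normalized counts in eYFP- and 16.5, 108 and 0 in eYFP+ libraries. It had 38.2, 7.29 and 31.6 in Ly6Chi and 0, 0 and 5.08 in Ly6Clo libraries, so the eYFP- libraries were again the highest 3. Fcer1a had 57.5, 100.4 and 274 normalized counts in eYFP-, 1.03, 29.6 and 0 in eYFP+, 0, 1.21 and 88.7 in Ly6Chi and 10.2, 0 and 0 in Ly6Clo libraries. Ly6Chi replicate 3 was thus above eYFP- replicate 1 for Fcer1a, whereas for Ms4a2 it was below Ly6Chi replicate 1. The eYFP+ minus eYFP- differences were -4.06 ± 1.66 for Ms4a2 and -3.82 ± 2.56 for Fcer1a (log2, SE, n = 3 per group), with DESeq2 adjusted p of 0.301 and 0.828.

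Relative to Mcpt8, the TPM of each other gene of this pattern in Ly6Chi replicate 3 lay outside its range in the 3 eYFP- libraries. The Cpa3 over Mcpt8 ratio was 0.597, 0.425 and 0.583 in the eYFP- libraries and 0.118 in Ly6Chi replicate 3. The Ms4a2 over Mcpt8 ratio was 0.106, 0.108 and 0.0978 against 0.0171. The Prss34 over Mcpt8 ratio, by contrast, was 2.15, 1.64 and 2.25 against 2.90. The Fcer1a over Mcpt8 ratio also differed among the eYFP- libraries, at 0.0315, 0.0376 and 0.0706, against 0.115 in Ly6Chi replicate 3. Ly6Chi replicate 3 is 1 library, so these differences have no replicate check.

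Summed over Mcpt8, Prss34, Cpa3, Ms4a2 and Fcer1a, the level was 340 to 812 TPM in eYFP- macrophages, 1.44 to 10.1 TPM in eYFP+ macrophages and 0 to 3.84 TPM in Ly6Clo monocytes. In Ly6Chi monocytes it was 1.25, 0.276 and 154 TPM in replicates 1, 2 and 3. Summed over Prg2, Epx and Ear6, it was 104, 72.9 and 978 TPM in eYFP- replicates 1, 2 and 3, 3.72 to 7.11 TPM in eYFP+, 0.0610 to 0.670 TPM in Ly6Chi, and 0.780, 0 and 566 TPM in Ly6Clo libraries. eYFP- replicate 3 was the highest library on both sums, while Ly6Clo replicate 3 was high on the eosinophil sum only and Ly6Chi replicate 3 on the basophil and mast cell sum only. What the replicate number stands for is not given. In the deposited column names, libraries with the same replicate number carry consecutive running numbers, whose meaning is not given either. Whether libraries numbered 3 share a preparation was not tested beyond the comparison of same-numbered libraries in the closing section.

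**Figure D2:**
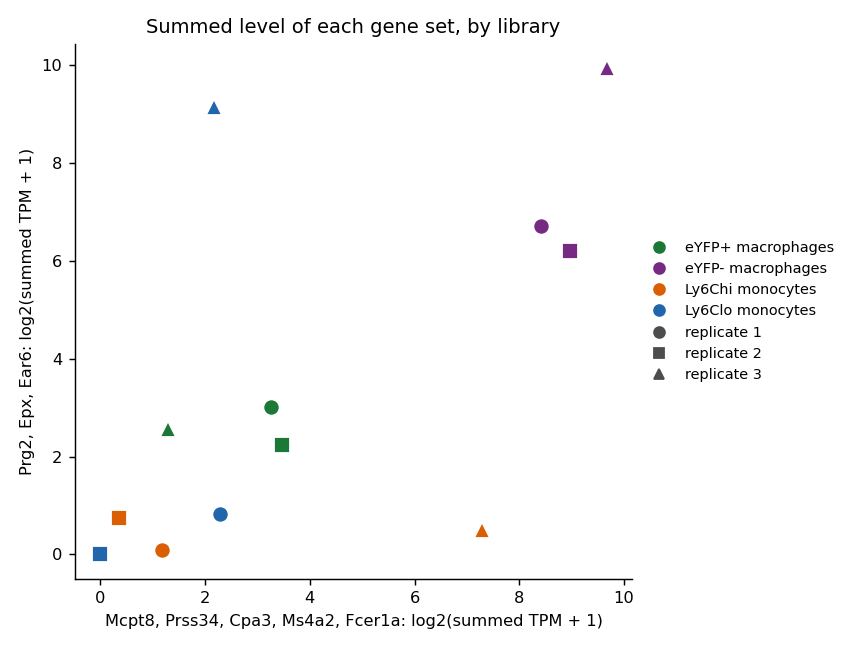
Each point is 1 library, coloured by group and shaped by replicate number; the x axis gives log2(summed TPM + 1) over Mcpt8, Prss34, Cpa3, Ms4a2 and Fcer1a and the y axis the same over Prg2, Epx and Ear6. The 3 eYFP- libraries stand at 340 to 812 TPM on the x axis, Ly6Chi replicate 3 stands apart on x alone at 154 TPM, and Ly6Clo replicate 3 stands apart on y alone at 566 TPM.

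In basophils and mast cells, GATA factors bind regulatory DNA of granule and receptor genes, and the GATA letters of the 5 basophil and mast cell genes were therefore looked up. The 250 bases before the RefSeq start of each gene (GRCm38.p6, a build other than the GRCm39 of the counts) were searched on both strands for AGATAA and TGATAA, which differ in their first letter only. Of the 9 members with a promoter in the table, 4 held a match, namely Prss34, Cpa3, Ms4a2 and Fcer1a. Over all genes with a promoter, 5092 of 27025 (18.8%) held one. The 4 sequences are shown because they are those of the basophil and mast cell genes that hold the letters, and capitals mark the match on either strand (TTATCT is AGATAA read on the other strand).

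Prss34, chr17:25298144-25298393, plus strand: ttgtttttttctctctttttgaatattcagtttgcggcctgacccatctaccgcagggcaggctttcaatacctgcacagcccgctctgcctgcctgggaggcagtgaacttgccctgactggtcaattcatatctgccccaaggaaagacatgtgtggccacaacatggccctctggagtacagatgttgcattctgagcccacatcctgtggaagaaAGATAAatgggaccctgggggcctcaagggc
Cpa3, chr3:20242182-20242431, minus strand: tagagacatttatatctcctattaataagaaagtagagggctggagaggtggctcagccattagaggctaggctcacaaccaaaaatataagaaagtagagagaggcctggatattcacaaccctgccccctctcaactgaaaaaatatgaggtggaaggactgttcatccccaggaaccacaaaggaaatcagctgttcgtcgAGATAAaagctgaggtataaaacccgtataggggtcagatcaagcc
Ms4a2, chr19:11623720-11623969, minus strand: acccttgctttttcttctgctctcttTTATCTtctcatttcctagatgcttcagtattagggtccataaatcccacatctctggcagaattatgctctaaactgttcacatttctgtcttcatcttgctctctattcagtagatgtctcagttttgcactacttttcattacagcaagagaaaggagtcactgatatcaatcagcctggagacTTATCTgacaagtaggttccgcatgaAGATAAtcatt
Fcer1a, chr1:173227230-173227479, minus strand: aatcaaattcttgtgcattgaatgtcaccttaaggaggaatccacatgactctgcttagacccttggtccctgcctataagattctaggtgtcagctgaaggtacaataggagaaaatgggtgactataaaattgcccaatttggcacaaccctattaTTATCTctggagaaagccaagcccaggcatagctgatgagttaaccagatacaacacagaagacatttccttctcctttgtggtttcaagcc

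The match began 31 bases before the start in Prss34, 46 in Cpa3 and 92 in Fcer1a, and Ms4a2 held 3, which began 224, 37 and 11 bases before the start. These letters are not in the same window of Epx, Mcpt8, Ear1, Ear2 and Ear6.

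Ear1 and Ear2, the remaining ribonuclease genes, had a distribution of their own. Ear2 was the most abundant of the 10 genes in Ly6Clo monocytes, with 2031, 893 and 1889 TPM. Its normalized counts were 28431, 14025 and 28280 in Ly6Clo, 9180, 10068 and 9504 in eYFP+, 6618, 7447 and 8443 in eYFP- and 1973, 2101 and 1737 in Ly6Chi libraries. On normalized counts no 2 neighbouring groups in this order overlapped, although Ly6Clo replicate 2, the shallow library, was closer to the eYFP+ values than to the other Ly6Clo libraries. On the TPM scale the macrophage groups overlapped, with eYFP+ replicate 1 at 590 TPM and eYFP- replicates 2 and 3 at 599 and 611 TPM. Ear1 had 100.2, 46.9 and 102.6 normalized counts in Ly6Clo, 31.9, 49.6 and 42.2 in eYFP+, 36.5, 35 and 34.3 in eYFP- and 2.12, 8.5 and 7.29 in Ly6Chi libraries. For Ear1, Ly6Chi was below all other groups and the other 3 groups overlapped with their neighbours.

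The similarity of the Ear genes bears on how far their counts can be told apart. The longest open reading frames of Ear1 and Ear2 were identical at 95.3% of aligned positions, those of Ear2 and Ear10 at 97.0% and those of Ear2 and Ear6 at 87.9%. The 90 bases from the start codon are shown for the 3 members, with capitals at the positions that differ from Ear2.

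Ear2: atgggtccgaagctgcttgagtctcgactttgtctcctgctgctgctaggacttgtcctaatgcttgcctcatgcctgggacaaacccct
Ear1: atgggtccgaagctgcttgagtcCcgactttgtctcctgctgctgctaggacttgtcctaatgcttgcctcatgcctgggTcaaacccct
Ear6: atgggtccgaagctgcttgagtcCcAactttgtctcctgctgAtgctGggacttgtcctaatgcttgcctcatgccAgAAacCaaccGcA

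In this stretch Ear1 differed from Ear2 at 2 and Ear6 at 10 positions. Of all windows of 100 bases in the reference transcript, 13.9% in Ear2 were found unaltered in Ear10 or the pseudogene Ear-ps2 and 23.9% in Ear1 in Ear10 or Ear-ps9, while Ear6, Prg2, Epx, Mcpt8, Prss34, Cpa3 and Fcer1a shared none and Ms4a2 shared 0.567% with Ms4a4b. No window was shared between Ear1 and Ear2. According to the study's methods only unambiguous read pairs were counted, so pairs lying wholly in shared windows would not be counted. How many pairs were lost was not tested, so the values of Ear1, Ear2 and Ear10 are uncertain to that extent. The TPM ratio of Ear2 over Ear1 stayed between 180 and 297 in the 9 libraries of eYFP+, eYFP- and Ly6Clo cells. Ear10 had at most 8 counts in any library. The 250-base promoters of Ear1 and Ear2 were identical at 97.6% of aligned positions, against 77.7% for Ear2 and Ear6.

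Across the 4 groups, DESeq2 gave an adjusted p for 8 of the 10 genes, and 5 of these 8 passed the test of any difference among groups (Prg2, Mcpt8, Ms4a2, Ear1 and Ear2), where 35.7% of the 21569 genes tested passed. The smallest adjusted p was that of Ear2, at 4.04e-24, followed by Ear1 at 6.43e-08, Mcpt8 at 1.27e-05, Ms4a2 at 0.000631 and Prg2 at 0.00514. Epx had an adjusted p of 0.0751, Prss34 of 0.102 and Fcer1a of 0.362 in the same DESeq2 test. Leaving out any 1 eYFP- library left 3 genes with an adjusted p, since the Cook's distance limit then removed 7. Leaving out all libraries numbered 3, an alternative chosen after seeing the data, 9 of the 10 genes passed, where 20.5% of the 18772 genes tested did.

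In the comparison of eYFP+ with eYFP- macrophages, Mcpt8 alone of the 8 tested genes passed, in the lower direction, where 1.88% of 21567 genes were lower in eYFP+ and 0.153% were higher. The median log2 difference of the 8 genes was -5.04, against 0.05 over all genes tested, and 6 of the 8 values were negative. Ear1 and Ear2 were the exceptions, at 0.23 ± 0.50 and 0.35 ± 0.31 (log2, SE, n = 3 per group). A DESeq2 fit on the 6 macrophage libraries alone, which do not carry the spread of the monocyte libraries, passed 5 of the 10 genes, adding Prg2, Epx, Prss34 and Cpa3, with adjusted p of 1.17e-05, 0.00385, 0.0230 and 9.86e-10. All 5 were lower in eYFP+ macrophages, as were 3.06% of the 20903 genes tested in that fit. In edgeR's quasi-likelihood test Mcpt8 had an adjusted p of 0.0677 and none of the 10 genes passed, where 0.328% of the 19189 genes tested passed as lower. An unadjusted p below 0.05 in edgeR was found for 6 of the 10 genes, and the share of all genes with one was not computed.

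**Figure D3:**
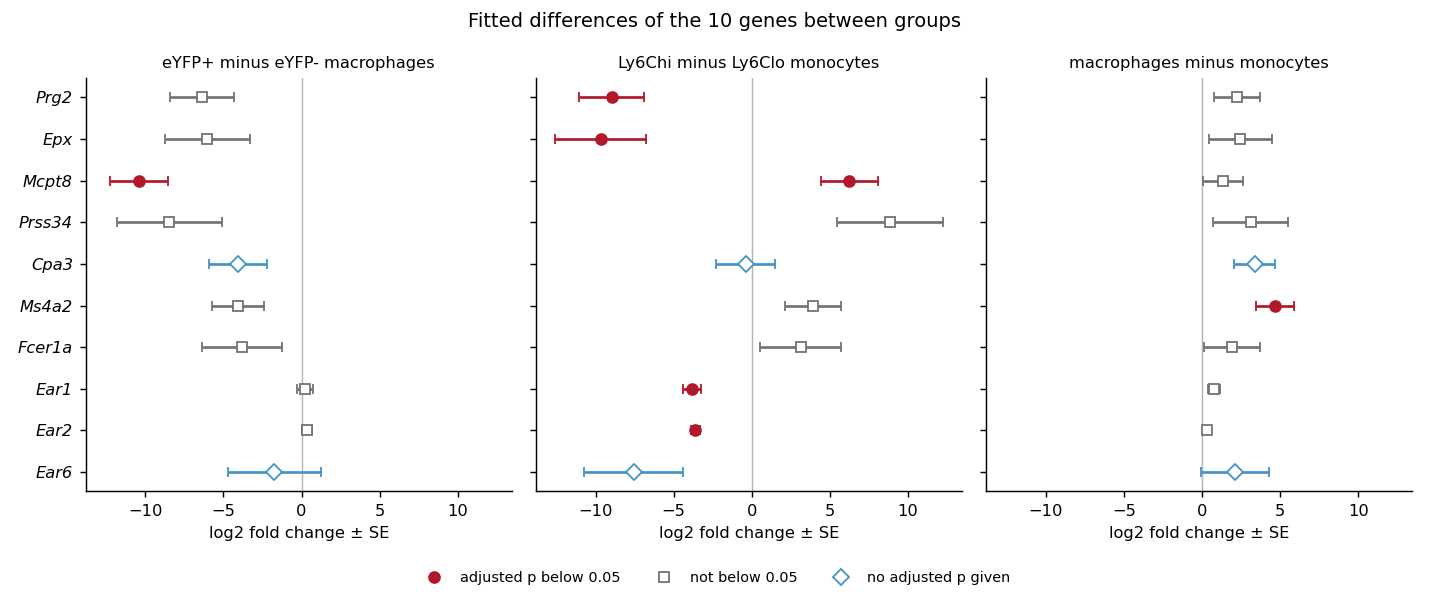
Points give the fitted log2 fold change of each of the 10 genes from DESeq2 on all 12 libraries, with bars of 1 SE; the left panel compares the macrophage groups (eYFP+ minus eYFP-), the middle panel the monocyte groups (Ly6Chi minus Ly6Clo) and the right panel macrophages with monocytes. Filled circles had an adjusted p below 0.05, open squares did not, and diamonds are Cpa3 and Ear6, for which no adjusted p was given. The SE of Ear2 is the smallest of the 10 in each panel (0.31 in the first), and Mcpt8 is the filled point furthest from 0, at -10.42.

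Between the monocyte groups, 5 of 8 tested genes passed: Mcpt8 was higher in Ly6Chi cells, where 3.66% of genes tested were higher, and Prg2, Epx, Ear1 and Ear2 were lower, where 4.97% were lower. Ear2 differed by -3.61 ± 0.31 and Ear1 by -3.83 ± 0.60 (log2, Ly6Chi minus Ly6Clo, SE, n = 3 per group), with DESeq2 adjusted p of 1.64e-28 and 2.61e-08. These 2 genes passed under each alternative run. The median log2 difference of the 8 genes was -0.24, and 3.12 over the 7 that had more than 3 counts in both groups, against 0.02 over all genes tested.

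The other 3 monocyte calls rested on single libraries. Prg2 differed by -8.97 ± 2.1 (DESeq2 adjusted p = 0.000661), and without Ly6Clo replicate 3 the difference was -0.15 with an adjusted p of 0.956. For Epx the Ly6Clo libraries had 1925 counts and the Ly6Chi libraries 2, a ratio per size factor of 857 with an exact 95% interval of 237 to 7080 for counting error only (DESeq2 adjusted p = 0.0155), and without Ly6Clo replicate 3 the log2 difference was 2.02 with an adjusted p of 0.662. Mcpt8 differed by 6.25 ± 1.83 (DESeq2 adjusted p = 0.0118), and without Ly6Chi replicate 3 the difference was 0.37 with an adjusted p of 0.899. With the replicate number as a block these 3 genes had adjusted p of 0.0526, 0.357 and 0.121.

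For macrophages against monocytes, Ms4a2 alone passed among 8 tested genes, higher in macrophages by 4.67 ± 1.22 (log2, SE, n = 6 per side, DESeq2 adjusted p = 0.000643), where 20.3% of the 22385 genes tested were higher and 15.0% lower. The other 7 differences ranged from 0.33 for Ear2 to 3.11 for Prss34. Without Ly6Chi replicate 3, 5 genes passed, all higher in macrophages, Mcpt8 at 4.22, Prss34 at 8.44, Cpa3 at 6.04 and Fcer1a at 4.74 among them, where 18.7% of all genes tested were higher. Without Ly6Clo replicate 3, 3 genes passed, all higher, Prg2 at 6.67 and Epx at 8.31 among them, where 21.8% of all genes tested were higher.

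Other genes of the same cells were read from lists of companions. Of 14 basophil and mast cell companions, 8 had an adjusted p in the macrophage comparison and 3 passed. All 3 were lower in eYFP+ macrophages, where 1.88% of all genes tested were lower. Hdc, which makes histamine, had 468, 800 and 895 normalized counts in eYFP- and 59.7, 16.2 and 0 in eYFP+ libraries, a difference of -4.84 ± 0.86 (log2, SE, n = 3 per group, DESeq2 adjusted p = 8.49e-06). Cd200r3, an activating receptor of basophils and mast cells, had 49.3, 95.2 and 102 against 11.3, 5.72 and 1.48, and Kit, the stem cell factor receptor, 183, 1738 and 1079 against 71.0, 171 and 221 normalized counts. Hdc was also found at 374 to 796 normalized counts in all monocyte libraries, whereas Cd200r3 reached 30.4 there, in Ly6Chi replicate 3. The median log2 difference of the 8 genes was -2.01. In edgeR's quasi-likelihood test none of the 3 passed after adjustment, and 3 of the 8 genes had an unadjusted p below 0.05.

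Proteases that define connective tissue and mucosal mast cells were at or near 0. Tpsb2 was at 0 in all 12 libraries, Tpsab1 had 4 counts and Mcpt4 6 counts, each in 1 library, and Mcpt1 had 11 counts at most. The chymase Cma1 reached 34 counts. Mcpt2 was the exception, with 60.99 to 86.2 normalized counts in eYFP-, 28.9 to 174 in eYFP+ and 0 to 3.64 in monocyte libraries. Il4, a cytokine of basophils among other cells, had 81.2 to 106 normalized counts in eYFP- and 88.7 to 102 in eYFP+ macrophages, so that it did not follow Mcpt8, and Il13 was at 0 throughout.

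Of 9 eosinophil companions, 6 had an adjusted p in the macrophage comparison and none passed in DESeq2, edgeR or limma, with an unadjusted p below 0.05 for 1 gene in DESeq2 and for 2 each in edgeR and limma. Prg3 differed by -4.83 ± 1.94 (log2, SE, n = 3 per group, DESeq2 adjusted p = 0.279) and the IL-5 receptor chain Il5ra had 4.56, 0 and 41.0 normalized counts in eYFP-, 0, 0 and 13.2 in Ly6Clo and at most 2.43 in the other libraries. Il5ra was thus highest in the same libraries as Epx, eYFP- replicate 3 and Ly6Clo replicate 3. Alox15, a lipoxygenase of eosinophils and some macrophages, had 0, 47.6 and 167 normalized counts in eYFP- but 60.3, 0 and 0 in Ly6Clo libraries, so that among the monocytes it was not highest where Epx was. Ccr3, known as the eotaxin receptor of eosinophils, did not follow the granule genes: it was at 613 to 1167 TPM in every macrophage library and 0.391 to 8.29 TPM in monocyte libraries, higher in macrophages by 8.35 ± 0.27 (log2, SE, n = 6 per side, DESeq2 adjusted p = 2.59e-201). Siglecf, a lectin of eosinophils and some macrophages, was at 5.53 to 11.03 TPM in macrophages and 0 to 3.56 TPM in monocytes. Rnase2b was higher in Ly6Chi than Ly6Clo monocytes, at 77 to 135 counts against 0 to 6. Ear14 was at 0 in all libraries. The median log2 difference over the 4 companions with more than 3 counts in both macrophage groups was -2.69.

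**Figure D4:**
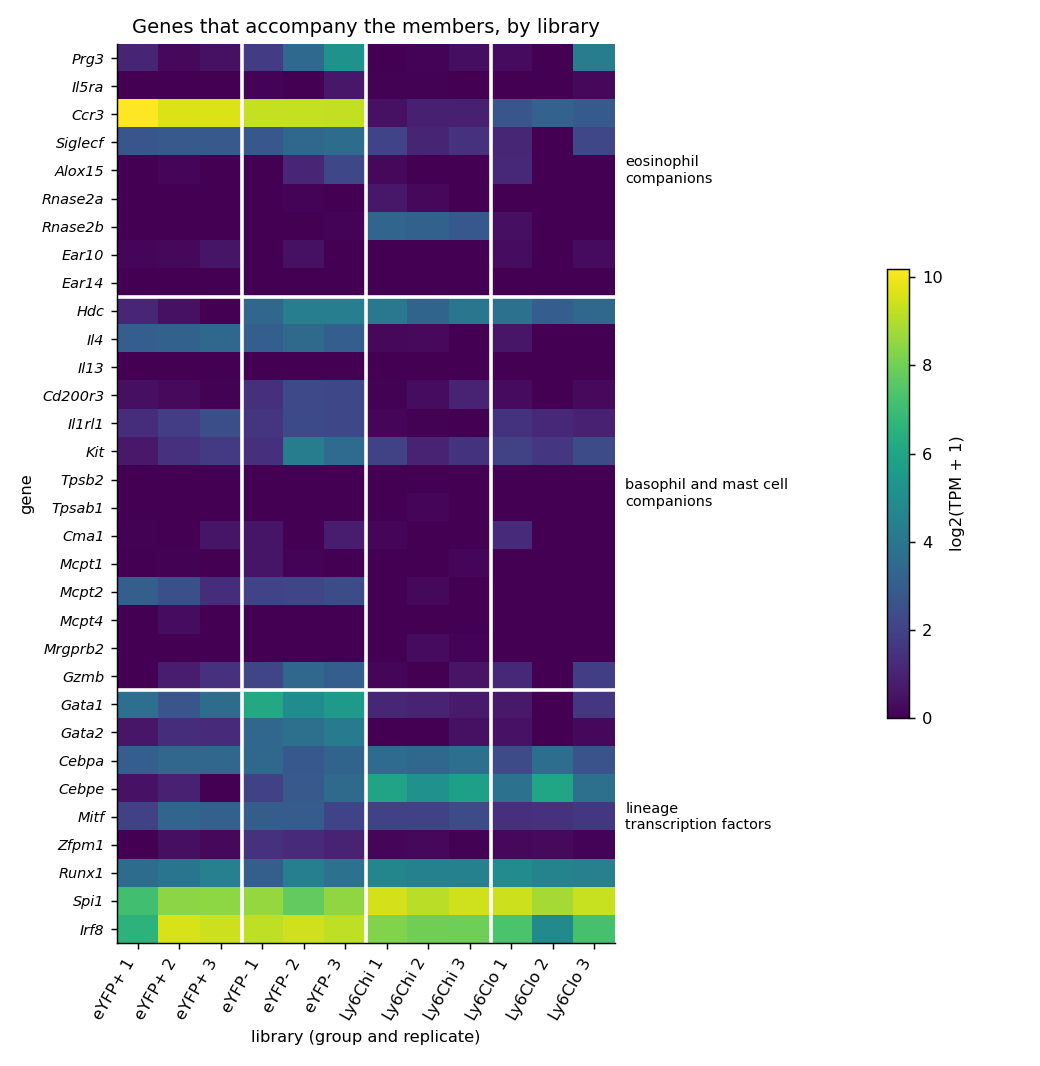
The heat map gives log2(TPM + 1) of the companion genes and lineage transcription factors in rows, against the 12 libraries in columns, ordered by group and replicate. Prg3 is brightest in eYFP- 3 and Ly6Clo 3 at 36.7 and 18.3 TPM, Ccr3 is bright in all macrophage columns, Gata2 in the eYFP- columns only at 9.26 to 17.4 TPM, and the mast cell proteases are dark throughout apart from Mcpt2.

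Gata2, which is needed for basophil and mast cell development, had 692, 774 and 1197 normalized counts in eYFP-, 42.2, 105 and 87.3 in eYFP+, 0, 0 and 26.7 in Ly6Chi and 28.9, 0 and 11.2 in Ly6Clo libraries. The eYFP- libraries did not overlap any others, and the eYFP+ minus eYFP- difference was -3.51 ± 1.66 (log2, SE, n = 3 per group) with a DESeq2 adjusted p of 0.474. Gata1, shared with the erythroid and megakaryocyte lineages, differed by -2.30 ± 0.85 with an adjusted p of 0.191. Of the 9 lineage transcription factors, 2 passed, both lower in eYFP+ macrophages: Cebpe at -3.85 ± 0.90 and the GATA partner Zfpm1 at -3.05 ± 0.90, with DESeq2 adjusted p of 0.00228 and 0.0358. The median of the 9 was -0.32, and 1.88% of all genes tested were lower in eYFP+ macrophages. In edgeR neither passed, and 4 of the 9 had an unadjusted p below 0.05.

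Of the 8 IgE receptor partners and cytokine receptors, 1 passed in the macrophage comparison, the adaptor Lat at -1.28 ± 0.39 (log2, SE, n = 3 per group, DESeq2 adjusted p = 0.0464), and the median was 0.04. In the same DESeq2 comparison 1.88% of all genes tested were lower in eYFP+ macrophages. In edgeR none of the 8 passed, and 1 had an unadjusted p below 0.05. Fcer1g, the receptor chain without which Fcer1a does not reach the surface, was at 4240 to 7635 TPM in all 12 libraries, while Fcer1a did not exceed 14.3 TPM. Il3ra, the receptor for the basophil growth factor IL-3, was at 6.9 to 22.0 TPM in macrophages and 1.75 to 27 TPM in monocytes.

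Markers of other bone marrow cells were read in the same macrophage groups with DESeq2, where 1.88% of all genes tested were lower in eYFP+ and 0.153% higher. Of 10 neutrophil precursor markers, 5 were lower in eYFP+ macrophages, with a summed level of 271 to 2723 TPM in eYFP- and 123 to 201 TPM in eYFP+ libraries. Of 6 stem and progenitor markers, 3 were lower, at 41.7 to 80.6 against 5.04 to 10.04 TPM, and of 6 erythroid markers, 2 were lower, at 17948 to 29809 against 7014 to 12286 TPM. The megakaryocyte markers, with 1 of 5 lower, summed to 136 to 184 against 122 to 199.9 TPM. edgeR passed 1 neutrophil precursor and 1 stem and progenitor marker, and no erythroid or megakaryocyte marker, where 0.328% of all genes tested were lower. In the same order of the 4 lists, 8, 5, 5 and 1 markers had an unadjusted p below 0.05 in edgeR. The 5 T and NK cell markers summed to 21.1 to 45.3 TPM in eYFP- and 3.09 to 15.2 TPM in eYFP+ libraries, which did not overlap, although none passed in DESeq2 or edgeR and 1 had an unadjusted p below 0.05 in each. The 5 B cell markers summed to 454.5 to 584 against 471 to 701 TPM, and none passed in DESeq2 or edgeR, with an unadjusted p below 0.05 for 2 and 0. Within the eYFP- group the neutrophil precursor sum was highest in replicate 2, not in replicate 3, where both sums over the members were highest. The basophil and mast cell companions were highest in replicate 2, at 29.2, 69.7 and 56.8 TPM in replicates 1, 2 and 3. The eosinophil companions were highest in replicate 3, at 632, 641 and 665 TPM. For Ly6Clo replicate 3 and Ly6Chi replicate 3 the neutrophil precursor sums, 8808 and 20484 TPM, lay within the range of the other libraries of their groups. The part of such cells in the values of the 10 genes was not tested.

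For each member, the 3 genes whose variance-stabilised values were most like its own over the 12 libraries were read out, by Pearson's r. For Mcpt8 the nearest were Prss34 (Pearson r = 0.983), Alox12e (0.972) and Cd200r3 (0.933), for Prss34 they were Mcpt8, Fcer1a (0.953) and Alox12e (0.949), and for Fcer1a Prss34 (0.953), Ano8 (0.925) and Mcpt8 (0.908). For Prg2 they were Prg3 (0.967), Epx (0.940) and Hspbp1 (0.928), and for Epx they were Prg3 (0.965), Prg2 (0.940) and Ear6 (0.885). Ear6 was nearest to Epx, followed by Ddx18 (0.833) and Rbm34 (0.809). Cpa3 was nearest to Gata2 (0.942), the integrin gene Itga2b (0.927) and Trim58 (0.923), and Ms4a2 to Mpp2 (0.955), Dkk3 (0.951) and Gpr4 (0.929). Ear1 and Ear2 were nearest to each other (0.976), followed by Fcgr4 (0.939) and Cd274 (0.932) for Ear1 and Cd274 (0.969) and Snhg15 (0.962) for Ear2. Within the 5 basophil and mast cell genes r was 0.820 to 0.983 over 10 pairs, within Prg2, Epx and Ear6 it was 0.754 to 0.940 over 3 pairs, and between the 2 sets it was 0.0307 to 0.768 over 15 pairs. The libraries share groups, so these values describe the 12 points and are no test.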

How the data were processed

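Polyadenylated RNA of sorted bone marrow cells was turned into full-length cDNA, amplified, tagmented and sequenced in 12 libraries, 3 in each of 4 groups taken from the labels. According to the study's methods, the authors trimmed and corrected the reads, removed ribosomal reads, aligned them to GRCm39 with Ensembl annotation and counted unambiguous read pairs over exons with featureCounts; whether counting used strand is not given in the sources used here. The deposited tables hold raw counts per gene, TPM (a share of transcripts corrected for transcript length by the authors) and log2-like variance-stabilised values made by the authors with DESeq2. Amplified reads without molecular identifiers are not independent molecules, so counting intervals cover counting error only.

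The 10 genes, the companion lists and the marker lists were chosen with earlier results of these data known. The result of the monocyte marker list is not reported here. All 10 genes and the genes of these lists may be named, and the nearest genes are the 3 with the highest Pearson r for each member. Deposited counts were fitted in R 4.3.3 with DESeq2 1.42.0 over all 12 libraries and all genes (group only, likelihood ratio test for any difference and Wald tests for 3 contrasts, Benjamini-Hochberg adjustment over all genes tested, threshold 0.05). DESeq2 also supplied the size factors behind each normalized count. Alternatives were edgeR 4.0.16 (quasi-likelihood, TMM), TMM factors in DESeq2, at least 10 counts in at least 3 libraries, no independent filtering, no Cook's distance limit, the replicate number as a block, limma 3.58.1 on log2(TPM + 1), fits on 6 libraries, and each library left out. The fitting scripts were tested on simulated counts. A depth of 26390927 to 48618187 counts per library leaves values of a few counts imprecise.

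Promoter sequences came from RefSeq (GRCm38.p6) and matched 9 of the 10 genes by symbol; Prg2 had no entry. Transcripts for the sharing and reading-frame comparisons were those of GENCODE on GRCm38. No coordinates of GRCm39 are given.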

Additional observations from a re-analysis of the deposited data

How the results depend on the processing

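The count of the 10 genes that passed depended on the fit. Of the 489 refitted log2 differences that had an adjusted p, 11 changed sign. Refits without an adjusted p were not counted. For eYFP+ minus eYFP- macrophages 1 gene passed, against 0 with edgeR (where 6 had an unadjusted p below 0.05), 4 with limma and 5 in the fit on 6 libraries. Of all genes tested in these fits, in the same order, 1.88%, 0.328%, 1.94% and 3.06% were lower in eYFP+ macrophages. For Ly6Chi minus Ly6Clo monocytes 5 passed, against 2 with edgeR, 2 with limma, 2 in the fit on 6 libraries and 2 with the replicate block. Of all genes tested in these fits, in the same order, 3.66%, 1.81%, 3.03%, 2.56% and 3.34% were higher in Ly6Chi. The shares lower in Ly6Chi were 4.97%, 2.51%, 3.68%, 3.35% and 2.96%. For macrophages minus monocytes 1 passed, against 2 with edgeR, 2 with TMM factors, 2 without the Cook's distance limit, 2 with the replicate block and 4 with limma. Leaving out libraries gave 3 to 9 genes for any difference among groups, 0 to 3 for eYFP+ minus eYFP-, 2 to 6 for Ly6Chi minus Ly6Clo and 1 to 7 for macrophages minus monocytes; the upper ends of 9 and 7 came without replicate 3 of all groups at once, chosen after seeing the data, and the lower ends of 3, 0 and 2 without an eYFP- library, when 7 genes had no adjusted p. In these leave-out fits, 20.5% to 40.4% of all genes tested passed the test of any difference. For eYFP+ minus eYFP-, 0.527% to 3.65% were lower and 0.0205% to 0.964% higher. For Ly6Chi minus Ly6Clo, 2.08% to 6.66% were lower and 1.14% to 4.84% higher. For macrophages minus monocytes, 8.43% to 17.7% were lower and 10.5% to 21.8% higher. Where the sign changed on leaving out libraries, the log2 difference of Ly6Chi minus Ly6Clo ran from -5.73 to 0.20 for Cpa3, -25.54 to 2.58 for Epx, -3.18 to 7.13 for Fcer1a and -2.43 to 25.97 for Prss34, and that of macrophages minus monocytes from -0.29 to 4.74 for Fcer1a and -7.29 to 11.68 for Prss34; the widest values arose where all remaining libraries of 1 group were at or near 0. With the replicate block the eYFP+ minus eYFP- difference of Ear6 was 4.18. The numbers were not taken to pair the libraries. Deviations of same-numbered libraries from their group means were correlated over 2000 genes. Between the macrophage groups r was 0.301, 0.165 and 0.0617 for replicates 1, 2 and 3. Between the monocyte groups r was 0.0767, 0.00328 and -0.000638. The 2 of 6 pairs that passed 0.1 were both of macrophages. Differently numbered libraries were not compared, so whether the macrophage libraries are paired was not settled. Values of a few counts, such as Mcpt8 in eYFP+ and Epx in Ly6Chi libraries, are limited by depth.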
